A study of Mus musculus with 6 samples.

Results

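The regions described here were accessible distal regions that lay scattered over the genome and appeared in mouse mammary epithelial cells after TGFβ. ATAC-seq, in which the transposase Tn5 cuts and tags open DNA, was applied to NMuMG, a cell line of the mammary epithelium of a normal mouse. All cells were kept for 6 h without serum or insulin. The vehicle group then received the acidified carrier with albumin for 2 h, and the other groups received TGFβ1 at 5 ng/ml for 2 h or for 12 h. There were 2 biological replicates per condition, and 1 peak list per condition that the authors made from both. The 12 h cells therefore also differed from the vehicle cells in their time without serum and insulin, and no vehicle of 12 h was analysed here. With 1 list per condition there was no replicate spread, so that no difference between conditions was tested. The lists hold no read counts, so that the depth behind each region is unknown, and library read totals were not used here.

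A member is a region found both at 2 h and at 12 h, absent from the vehicle list, and more than 1000 bp from every annotated transcript start. Such distal gained regions were chained where the gap to the next was under 25 kb, and only chains of 1 or 2 were kept. Presence in the lists, the distance to start sites and the spacing thus chose the members, and these measures are given below as descriptions without a test. Of 39435 regions in the union of the 3 lists, 27986 were distal and 9706 were distal and gained, which is 34.7% of the distal regions. Of these, 8160 (84.1%, 95% Wilson interval 83.3 to 84.8) were scattered, 5846 alone and 2314 in 1157 pairs. The other 1546 formed 454 chains of up to 8 regions and are called clustered. The 6373 distal regions of all 3 lists are called shared distal. Absence from the vehicle list means that no reproducible peak was called there, and the vehicle list was shorter (16765 regions) than the lists after 2 h (32548) and 12 h of TGFβ (33079). In an alternative, both TGFβ lists were shortened before merging to their widest intervals, as many as the vehicle list had distinct intervals of at least 150 bp. Then 2356 scattered regions were left. In a population of cells, a larger share of open cells and more cutting per cell cannot be told apart.

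As background, TGFβ binds a pair of serine/threonine kinase receptors, which phosphorylate SMAD2 and SMAD3. These join SMAD4, enter the nucleus and bind DNA weakly on their own, usually beside other factors. AP-1, a dimer of JUN, FOS, ATF or MAF proteins, binds enhancers in many cell types and is a frequent partner of SMAD proteins. CTCF, a zinc finger protein, anchors chromatin loops and insulates neighbouring domains. In mammary epithelial cells TGFβ drives the epithelial-mesenchymal transition (EMT), in which junctions are lost and mesenchymal genes come on.

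The following stretches show the motifs on which the motif results turn. Each is 61 bases long, from the plus strand of NCBIM37 (mm9), written 5′ to 3′. Capitals mark a match to AP-1 (TGACTCA or TGAGTCA, each the reverse complement of the other) or to the SMAD palindrome (GTCTAGAC), and in 1 case to CTCF. Within 250 bp of their centres, 46.0% of all distal regions held AP-1, 1.00% the SMAD palindrome and 5.03% CTCF. A match describes the letters of the sequence and not an occupied site. The first 3 are from the widest members at 12 h with both AP-1 and the SMAD palindrome, and in the region on chromosome 2 both matches fall in the same stretch:
chr2:145482553-145482613: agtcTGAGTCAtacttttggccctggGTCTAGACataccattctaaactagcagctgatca
chr9:82200089-82200149: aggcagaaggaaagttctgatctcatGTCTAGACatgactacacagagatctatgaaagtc
chr16:12743097-12743157: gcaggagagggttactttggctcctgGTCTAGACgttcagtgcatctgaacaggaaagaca
The next 4 are each from a different member. In order, the first had the largest ratio of 12 h to 2 h width and the second had 5 AP-1 matches. The third lay 1251509 bp from any other region, and the last was the widest at 12 h among those with CTCF:
chr17:5799369-5799429: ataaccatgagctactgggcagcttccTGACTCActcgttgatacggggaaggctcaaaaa
chr6:143314539-143314599: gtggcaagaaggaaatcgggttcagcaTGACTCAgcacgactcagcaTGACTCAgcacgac
chr8:104548585-104548645: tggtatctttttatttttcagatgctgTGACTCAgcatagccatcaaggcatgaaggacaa
chr19:45091854-45091914: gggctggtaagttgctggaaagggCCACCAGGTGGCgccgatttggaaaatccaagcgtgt
The last 7 come only from nearest members with an AP-1 match, so the set does not show how common a match was. They lie near genes of the pathway and of the transition, while the nearest members of Tgfbr1, Ski and Cdh1 had none:
Eng, chr2:32545062-32545122: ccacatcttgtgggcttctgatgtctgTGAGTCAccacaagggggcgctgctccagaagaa
Acvr1, chr2:58432765-58432825: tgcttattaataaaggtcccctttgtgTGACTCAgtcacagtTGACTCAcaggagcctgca
Tgif1, chr17:71186356-71186416: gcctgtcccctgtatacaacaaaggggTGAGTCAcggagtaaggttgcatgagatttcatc
Sox4, chr13:29009416-29009476: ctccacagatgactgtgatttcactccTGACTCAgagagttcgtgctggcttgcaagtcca
Junb, chr8:87509215-87509275: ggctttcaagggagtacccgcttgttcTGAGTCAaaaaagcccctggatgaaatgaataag
Jdp2, chr12:86934102-86934162: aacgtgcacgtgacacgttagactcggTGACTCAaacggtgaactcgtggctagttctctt
F11r, chr1:173375375-173375435: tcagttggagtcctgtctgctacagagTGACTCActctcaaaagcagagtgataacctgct

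Scattered regions were narrow. Their median width was 445 bp at 2 h (10th percentile 228 bp, 90th percentile 826.1 bp) and 493 bp at 12 h (236 bp and 894 bp). Together they covered 4.13 Mb at 2 h and 4.50 Mb at 12 h. Clustered regions had medians of 464.5 bp and 522 bp, close to those of the members. Shared distal regions were wider, with medians of 669 bp after 2 h, 665 bp after 12 h and 451 bp in vehicle. The authors' peak caller often wrote several lines for 1 interval, and members had 2.11 lines per interval at 2 h and 2.31 at 12 h, against 2.75 and 2.84 in shared distal regions.

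The regions of both time points coincided at most members. A single interval in each list made up 7383 members (90.5%). At 7466 members (91.5%), at least 90% of the narrower region was shared with the wider one, and the centres lay a median of 38.5 bp apart. In 70 members (0.858%) the 2 h and the 12 h region shared no base and were joined only because they lay under 1000 bp apart.

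More members grew than shrank between 2 h and 12 h. A member was wider at 12 h in 4973 cases (60.9%, 59.9 to 62.0) and narrower in 3156, with 31 equal. Clustered regions were wider at 12 h in 62.2% of cases (59.7 to 64.5). The odds did not differ detectably between scattered and clustered regions (odds ratio 0.95, 95% interval 0.853 to 1.06, p = 0.351, n = 9706 regions, logistic regression with errors grouped by 1 Mb bins). In this and the following fits n counts regions, which are not replicates of a condition. In shared distal regions the share was 49.3% (48.0 to 50.5), and this difference was not tested. At least 1.5-fold growth occurred in 1421 members (17.4%), against 13.7% of all distal regions in both TGFβ lists. At least 1.5-fold narrowing occurred in 721 members (8.84%), against 8.76% of those regions. The median ratio of the 12 h to the 2 h width was 1.06 (quartiles 0.912 and 1.32). The plot of both widths shows this spread.

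**Figure D1:**
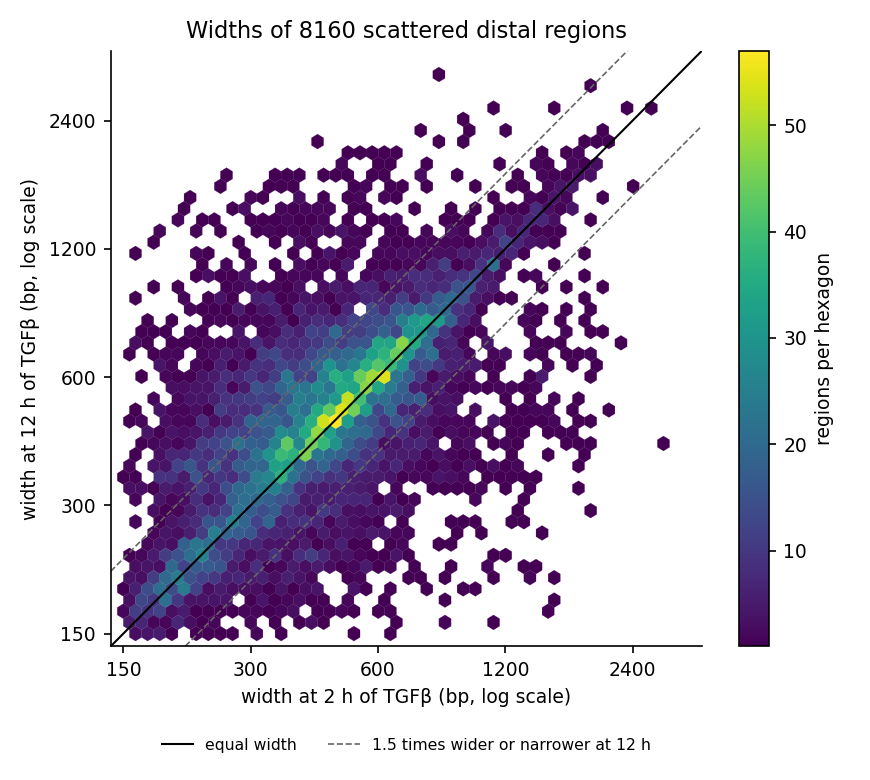
Width of each of the 8160 scattered regions at 2 h (horizontal axis, bp, log scale) against 12 h of TGFβ (vertical axis, bp, log scale), as the number of regions per hexagon. The solid line marks equal width and the dashed lines a 1.5-fold change; 4973 regions lie above the solid line and 3156 below it.

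Regions at the ends of this range were selected on their widths. The widest at 12 h lay in an intron or noncoding exon of Aff1, which encodes a scaffold of the super elongation complex (chr5:104207322-104210434). Its width was 858 bp at 2 h and 3078 bp at 12 h. The next was in Cdkal1, a tRNA-modifying enzyme (chr13:29594513-29597518), with 1904 bp and 3000 bp. The third was intergenic on chromosome 8 (chr8:109638559-109641233) and hardly differed, with 2641 bp and 2645 bp. All 3 were merged from several intervals, and none had an AP-1 match within 250 bp of its centre.

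The largest ratio of 12 h to 2 h width, 7.53, was found at an intergenic member on chromosome 17 (chr17:5798329-5800436), with 182 bp and 1371 bp. Its 2 h and 12 h regions shared no base within a span of 2108 bp. The ratio thus does not describe the growth of 1 region. Part of the member's sequence is printed above, with 1 AP-1 match. A region in Cenpm, which encodes a centromere protein (chr15:82065797-82067338), grew from 208 bp to 1514 bp. A region 9524 bp from a start of Zfhx3, a homeobox factor gene (chr8:111227861-111229020), grew from 160 bp to 1160 bp and had a GC content of 79.2% around its centre. The smallest ratio was found at a member in Ube2u (chr4:100210597-100212425), a ubiquitin-conjugating enzyme gene, with 1587 bp at 2 h and 178 bp at 12 h. There too the 2 h and 12 h regions shared no base, within a span of 1829 bp. The members with the next smallest ratios were intergenic, from 1498 bp to 173 bp (chr8:129060123-129061620) and from 1529 bp to 198 bp (chr1:174342446-174343982). None of these 3 members had an AP-1 match in the window. All 3 had 2 intervals at 2 h and 1 at 12 h, so that the centre can fall between intervals.

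Members were mostly far from genes' starts. The median distance to the nearest transcript start was 19391.5 bp (10th percentile 3238.9 bp, 90th percentile 108663 bp). To the nearest protein-coding start it was 31046 bp, and 917 members (11.2%) lay over 100 kb from any start. The member nearest to the limit lay at 1009 bp, and the nearest gained region left out lay at 1000 bp. The gaps nearest to the limit for chains were 24993 bp and 25013 bp.

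Scattered did not mean isolated from other accessible chromatin. The nearest region of any kind in the union lay a median of 10808.5 bp away, and 6005 members (73.6%) had one under 25 kb. The nearest vehicle region lay a median of 29284.5 bp away, and under 25 kb for 3740 members (45.8%). Within 25 kb, 2176 members (26.7%) had a shared distal region and 2060 (25.2%) a start site region of all 3 lists. Regions of 12 h alone were that near to 1916 members (23.5%) and regions of 2 h alone to 1589 (19.5%). The most isolated member lay on chromosome 18 (chr18:27866563-27867249), 1502183 bp from any other region, with 589 bp at 2 h, 686 bp at 12 h and 3 AP-1 matches. The next lay on chromosome 5 (chr5:56831679-56832904), 1273256 bp from its neighbour. Its widths of 1201 bp and 1202 bp hardly differed, and it had no AP-1 match. The third lay on chromosome 8 (chr8:104548430-104548633), 1251509 bp from its neighbour, with 197 bp and 204 bp and the AP-1 match printed above.

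A member's centre lay inside a protein-coding gene in 3719 cases (45.6%, 44.5 to 46.7), mostly in an intron or a noncoding exon (3563). Coding exons held 67 (0.821%) and UTR exons 89 (1.09%), while 4227 (51.8%) were intergenic. Among clustered regions 41.8% lay inside protein-coding genes (odds ratio 1.16 for scattered against clustered, 0.984 to 1.38, p = 0.0766, n = 9706), and 44.6% of shared distal regions did (odds ratio 1.04, 0.972 to 1.12, p = 0.248, n = 14533). Neither difference passed the threshold of 0.05. The ratio against clustered regions passed it at a margin of 5000 bp (1.31, 1.06 to 1.62) and turned to 0.942 at a chain gap of 10 kb. The members fell into 2522 genes, of which 735 held 2 or more and 43 held 5 or more. The genes with the most were long: Gm20388, annotated over 4435 kb, held 22, Arfip1 held 13, and the synaptic scaffold gene Dlg2 and the phosphodiesterase gene Pde4d held 10 each. For 4060 members (49.8%) the start of the nearest protein-coding gene was covered in all 3 lists. For 3205 (39.3%) it was covered in none, and for 622 (7.62%) in both TGFβ lists alone.

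AP-1 matches were common in the members and rare in their surroundings. A match lay within 250 bp of the centre in 4225 members (51.8%, 50.7 to 52.9), against 8.04% (7.62 to 8.48) of windows of equal length 5 kb to either side. The share was 50.5% in clustered and 48.6% in shared distal regions. Scattered and clustered regions did not differ detectably (odds ratio 1.05, 0.947 to 1.17, adjusted p = 0.440 over the 14 motifs fitted, n = 9706). Against shared distal regions the odds ratio was 1.14 (1.06 to 1.22, adjusted p = 0.000645 over 16 motifs, n = 14533). With width and GC content in the fit it was 0.997 (0.929 to 1.07, adjusted p = 0.926, n = 14533), so that this difference was lost. It was also lost in regions of 1 interval per list (1.04, 0.967 to 1.12). Distal regions of 12 h alone had AP-1 in 49.1% and those of 2 h alone in 33.5% of cases, and these shares were not tested against the members.

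The SMAD palindrome, the inverted repeat of the SMAD core element, was rare. It occurred in 103 members (1.26%, 1.04 to 1.53), against 0.365% of flanking windows, 0.970% of clustered and 0.722% of shared distal regions. The odds were higher in scattered than in shared distal regions (odds ratio 1.76, 1.24 to 2.50, adjusted p = 0.00546), also with width and GC content in the fit (1.71, 1.17 to 2.48, adjusted p = 0.0165, n = 14533). Against clustered regions the odds ratio was 1.30 (0.760 to 2.24, adjusted p = 0.440, n = 9706). Distal regions of 12 h alone had the palindrome in 1.24% and those of 2 h alone in 0.823% of cases, which was not tested. The short SMAD box, CAGAC or GTCTG, was found in 78.5% of members and 75.1% of shared distal regions (odds ratio 1.21, 1.12 to 1.30, adjusted p = 1.11e-05, n = 14533). It was also present in 67.4% of flanking windows and in 79.5% of clustered regions (odds ratio 0.939 for scattered against clustered, adjusted p = 0.440, n = 9706). The GC-rich SMAD motif GGCGC was less frequent in members (13.5%) than in shared distal regions (20.1%, odds ratio 0.621, 0.568 to 0.678, adjusted p = 8.48e-25), and remained so with width and GC content in the fit (0.768, adjusted p = 3.27e-06, n = 14533).

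CTCF matches were more frequent in scattered than in clustered regions. They occurred in 349 members (4.28%, 3.86 to 4.74) and in 34 clustered regions (2.20%, 1.58 to 3.06). The odds ratio was 1.99 (1.40 to 2.83, adjusted p = 0.00193), and 1.86 (1.29 to 2.67, adjusted p = 0.0118, n = 9706) with width and GC content in the fit. Flanking windows had CTCF in 0.288% of cases. Shared distal regions had it in 3.66% (odds ratio 1.18, 0.997 to 1.39, adjusted p = 0.0969), and with width and GC content in the fit the direction turned (0.668, 0.551 to 0.808, adjusted p = 0.000137, n = 14533). Regions of 2 h alone (7.84%) and 12 h alone (5.12%) had higher CTCF shares than the members, and these differences were not tested.

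Further motifs were compared in the same way. TEAD (CATTCCA), bound by the TEAD partners of YAP, was found in 12.2% of members against 8.33% of flanking windows. RUNX (TGTGGTT) was found in 18.3% against 12.4%. Against shared distal regions neither passed the threshold, with odds ratios of 1.06 (0.961 to 1.18, adjusted p = 0.288, n = 14533) for TEAD and 1.00 (0.919 to 1.09, adjusted p = 0.993) for RUNX. FOX (TGTTTAC) was found in 10.4% of members and 11.8% of shared distal regions (odds ratio 0.865, 0.779 to 0.961, adjusted p = 0.0158, n = 14533). SP/KLF (GGGGCGGGG) was found in 1.67% and 3.91% (odds ratio 0.417, 0.336 to 0.518, adjusted p = 2.10e-14, n = 14533), and with width and GC content in the fit its adjusted p was 0.0555. ETS (CCGGAAGT) was found in 0.784% and 1.29% (odds ratio 0.607, 0.436 to 0.843, adjusted p = 0.00766, n = 14533), and with width and GC content in the fit its adjusted p was 0.270. The Snail and ZEB E-box (CAGGTG) was found in 29.2% of members (28.2 to 30.2) and 29.3% of their flanks (28.6 to 30.04). Of TEAD, RUNX, FOX, SP/KLF and the E-box none differed detectably between scattered and clustered regions, with adjusted p between 0.440 and 0.508. Of all distal regions, 76.7% held the SMAD box, 15.2% GGCGC, 11.7% TEAD, 10.6% FOX and 2.18% SP/KLF. GC content averaged 46.2% in members (SD 5.94 over regions), 47.2% in clustered and 48.7% in shared distal regions. Members were lower than clustered regions by 1.05 percentage points (0.574 to 1.53, p = 1.55e-05) and lower than shared distal regions by 2.54 points (2.31 to 2.77, p = 1.11e-103, n = 14533). With both TGFβ lists shortened, the difference from clustered regions was -0.497 points (-2.36 to 1.37) and no longer passed the threshold. The plot of motif shares sets the classes beside the flanks.

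**Figure D2:**
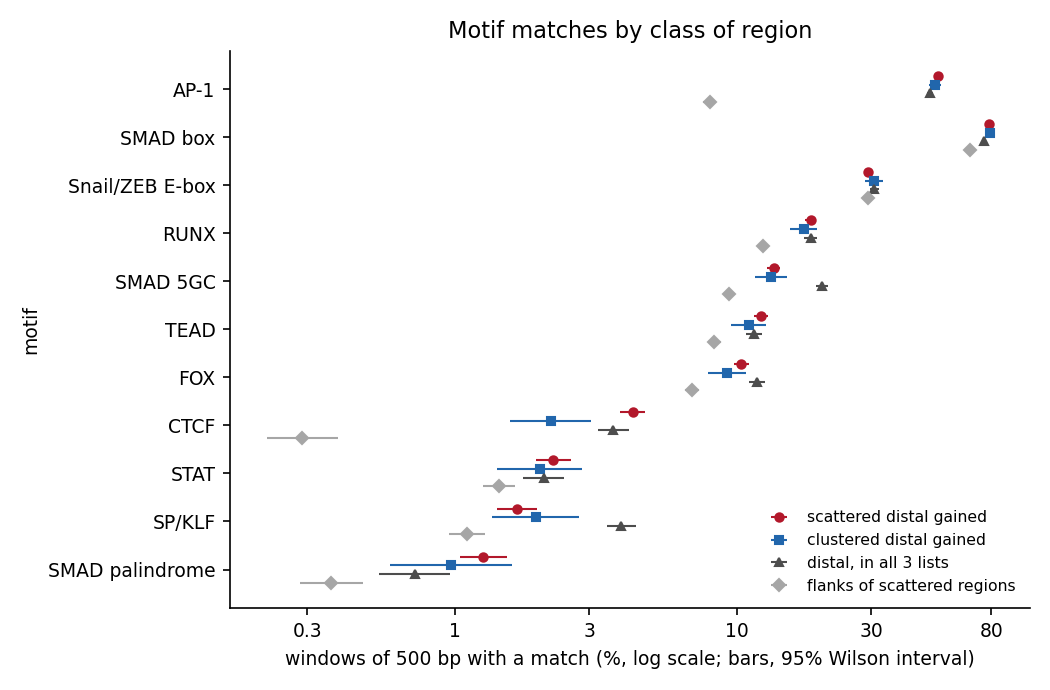
Share of 500 bp windows with a match (horizontal axis, percent, log scale) for 11 motifs (vertical axis) in scattered, clustered and shared distal regions and in the flanks of scattered regions, with 95% Wilson intervals as bars. AP-1 stands at 51.8% in scattered regions against 8.04% in flanks, and CTCF at 4.28% in scattered against 2.20% in clustered regions.

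Matches to AP-1 and CTCF were densest around the centres of the regions. Within 50 bp of the centre, 5.66% of members had an AP-1 match per 25 bp, against 0.631% at 400 to 500 bp, a ratio of 8.96. The ratio was 7.56 in clustered and 6.35 in shared distal regions. For CTCF the same ratio was 23.9 in members, 10.7 in clustered and 6.76 in shared distal regions, the outer share resting on few matches. These ratios were not tested. The plot by position shows the peak at the centre.

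**Figure D3:**
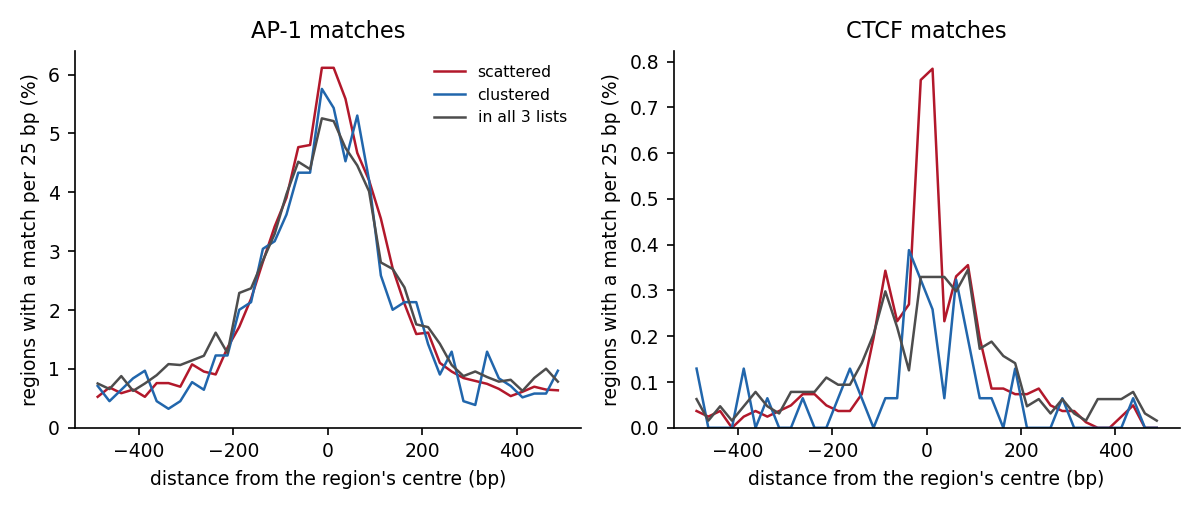
Regions with an AP-1 match (left) or a CTCF match (right) per 25 bp (vertical axes, percent) by distance from the centre of the region (horizontal axes, bp), for scattered, clustered and shared distal regions. AP-1 is highest at the centre in all classes, and CTCF is highest in the 50 bp around the centre of scattered regions.

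Most members with AP-1 had a single match in the window. There were 3218 members with 1 match (39.4%), 889 with 2 (10.9%) and 118 with 3 or more (1.45%). The 5 matches of the region on chromosome 6 (chr6:143314322-143314785) lay in a short repeat, part of which is printed above. That region grew from 229 bp at 2 h to 464 bp at 12 h. Another with 5 matches lay in Arhgap26, which encodes a GTPase activator of RhoA, and measured 486 bp and 379 bp. A region with 4 matches lay 80062 bp from a start of Sgk1, a kinase gene (chr10:21521117-21521928), and measured 606 bp and 812 bp. The most frequent sequences with 1 base added on either side were CTGAGTCAC (11.1% of member matches, 7.62% of flank matches) and GTGAGTCAC (10.7% and 6.32%).

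Both motifs occurred together in 41 members, which is 39.8% (30.9 to 49.5) of those with the SMAD palindrome, below the 51.8% of all members with AP-1. The widest of these were the regions on chromosome 9 (chr9:82199710-82200728, 630 bp at 2 h and 1012 bp at 12 h), chromosome 16 (chr16:12742613-12743593, 977 bp and 961 bp) and chromosome 2 (chr2:145482048-145483036, 774 bp and 961 bp). A SMAD box lay within 30 bases of 1057 of 5142 AP-1 matches in members (20.6%, 19.5 to 21.7). The share was 22.1% in clustered regions, 15.2% (14.1 to 16.4) in shared distal regions and 12.3% (10.5 to 14.3) at the AP-1 matches in the flanks. These shares were not tested. AP-1 was found in 53 of 349 members with CTCF (15.2%, 11.8 to 19.3). None of AP-1, SMAD palindrome and CTCF was found in 3578 members (43.8%).

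Both motifs varied with the width of the region. CTCF was present in 16.4% (14.0 to 19.1) of the narrowest decile of members (157 to 286 bp), in 6.74% of the next and in 0.858% of the widest. Members with CTCF had median widths of 252 bp at 2 h and 272 bp at 12 h, against 453 bp and 501 bp without it. AP-1 rose from 32.7% (29.6 to 36.0) in the narrowest decile to 61.9% in the fourth decile, stayed between 54.9% and 61.3% up to the ninth and fell to 26.3% in the widest. Of the widest decile 66.1% were merged from several intervals, so that the centre can fall between them. Searched over its whole length, a member of several intervals held AP-1 in 72.5% of 777 cases, against 26.4% in the central window. Over the whole length of all members the share was 58.2%, with 1.26 matches per kb. The plot by width shows both motifs.

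**Figure D4:**
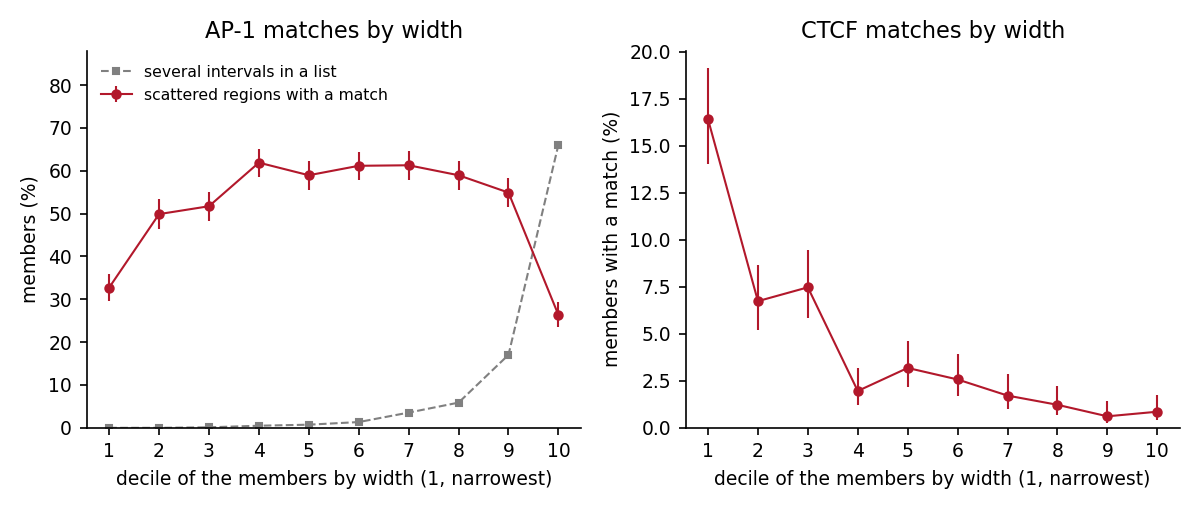
Members with an AP-1 match (left) or a CTCF match (right) in the central 500 bp (vertical axes, percent) by decile of width (horizontal axes, 816 members each, narrowest first), with 95% Wilson intervals. AP-1 is lowest at both ends, where the widest decile holds 66.1% merged regions (dashed line), and CTCF falls from 16.4% to 0.858%.

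The change in width between the time points varied with AP-1 as well. Members that shrank most, to 0.695 of their 2 h width or less, had AP-1 in 39.7% of cases. The share was 59.9% at ratios from 1.24 to 1.43 and 43.1% at ratios of 1.79 and above. Merged regions made up 23.8% and 26.1% of the first and last decile, and their part in this pattern was not tested. Of members with AP-1, 63.7% were wider at 12 h, and of those with CTCF 54.4%.

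Distance from genes varied with both motifs too. AP-1 was found in 48.4% of members under 5 kb from a start site and in 56.9% of those over 100 kb. CTCF was found in 5.37% and 1.53% of the same groups, with 6.69% at 5 to 10 kb. GC content fell over the same range, from 48.0% to 43.0%. Its part in the change was not tested.

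The regions of a pair lay a median of 10764 bp apart. Both had AP-1 in 309 of 1157 pairs (26.7%), one in 575 and neither in 273, and the share of paired members with AP-1 multiplied by itself is 26.6%. Both changed width in the same direction in 596 pairs (51.5%), where 59.9% of all paired members were wider at 12 h. The share expected without a link within pairs was not computed, so that the 51.5% does not show coordination. Both regions lay in the same protein-coding gene in 447 pairs (38.6%). Paired members had AP-1 in 51.6% and CTCF in 3.50% (2.83 to 4.33) of cases, single ones in 51.9% and 4.58% (4.08 to 5.15). These differences were not tested.

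Members occurred on all 20 chromosomes searched. Their density ran from 1.22 per Mb on the X chromosome to 4.35 per Mb on chromosome 19. They made up between 24.8% (chromosome 15) and 33.3% (chromosome 12) of the distal regions of a chromosome. These same chromosomes stood at the ends for both motifs: AP-1 was found in 45.8% of members on chromosome 15 and 59.8% on chromosome 12, and CTCF in 7.03% and 0.307%. The share that was wider at 12 h ran from 57.3% on chromosome 1 to 66.4% on chromosome 17.

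Members lay near many genes of the TGFβ pathway, as they did near genes in general. Of 22208 protein-coding genes, 11866 (53.4%) had a scattered region within 100 kb of a start, and this background goes with every count that follows. With both TGFβ lists shortened the share was 20.8%. Gene lists were written with earlier results of these data known, and no list was tested. Members within 100 kb made up 28.5% of the distal regions near all protein-coding genes, and between 20% (TGFβ ligands) and 35.1% (epithelial junctions) near the lists. The ligands thus had the lowest such share although 9 of their 11 genes had a member. Genes of other lineages, such as blood, liver and neurons, had a member within 100 kb in 12 of 23 cases (52.2%), and none of their starts was covered in any list. Starts of epithelial junction genes were covered in 7 of 17 cases by the vehicle list, in 9 by that of 2 h and in 10 by that of 12 h. Most other lists also rose from vehicle to 12 h, such as mesenchymal and matrix genes (5, 7 and 9 of 18). The lists of Smads, the AP-1 family, actin genes and other lineages did not. Both TGFβ lists were longer than the vehicle list, and the share of all genes with a covered start is not given here. The starts of Cdh1, the E-cadherin gene, and of Pkp1 were covered in both TGFβ lists but not in vehicle. Of the other junction genes, Cldn4 had its start covered at 12 h alone, and the rest in all 3 lists or in none. The plot of gene lists shows all counts.

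**Figure D5:**
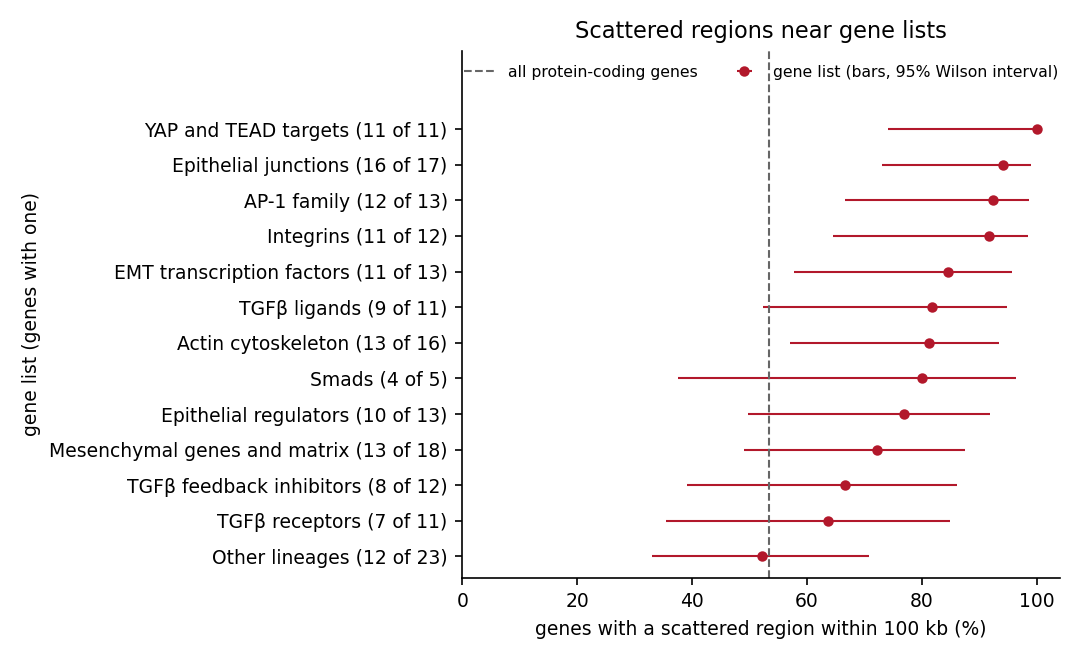
Share of genes with a scattered region within 100 kb of a start site (horizontal axis, percent) for 13 gene lists (vertical axis, with the number of genes), with 95% Wilson intervals. The dashed line marks the 53.4% of all protein-coding genes; the list of other lineages stands at 52.2% and the other lists above the line.

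Of the ligands and their binding proteins, 9 of 11 had a member within 100 kb, all but Bmp4 and Inhba. Of the receptors, 7 of 11 had one. The nearest to a receptor gene lay 1807 bp from a start of Tgfbr1, the type I receptor of TGFβ (chr4:47363877-47364287). It narrowed from 411 bp at 2 h to 229 bp at 12 h, and the nearest vehicle region lay 1246 bp away. A member in Acvr1b, the type I activin receptor gene, lay 9285 bp from its start and measured 450 bp and 461 bp (chr15:101013841-101014301). Eng encodes endoglin, a co-receptor, and had a member at 10262 bp (chr2:32544904-32545229, 314 bp and 217 bp). Acvr1, another type I receptor gene, had one at 12815 bp that grew from 473 bp to 750 bp (chr2:58432383-58433132). Those of Eng and Acvr1 had 2 AP-1 matches each, and those of Tgfbr1 and Acvr1b had none.

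Of the signal-transducing Smad genes, 4 of 5 had a member within 100 kb, all but Smad2, but none nearer than 37706 bp. That one, near Smad5 (chr13:56765696-56766665), measured 938 bp and 797 bp, and one 47783 bp from Smad1 measured 172 bp and 245 bp. Both genes act mainly downstream of BMP receptors. The member nearest to Smad3 lay at 80852 bp (chr9:63686653-63687710), measured 773 bp and 1058 bp and had 1 AP-1 match. Smad4 had one at 99982 bp, with 1513 bp and 1240 bp and no AP-1 match. All 5 Smad starts were covered in all 3 lists.

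Inhibitors and feedback genes of the pathway had a member in 8 of 12 cases. Ski, a SMAD co-repressor, had 4 within 100 kb, and the nearest lay inside the gene at 4800 bp (chr4:154590254-154591829). It shrank from 1576 bp to 524 bp. Skil, its relative, had one inside the gene at 11826 bp that grew from 202 bp to 477 bp (chr3:31008015-31008491). Tgif1, another SMAD co-repressor, had one at 9114 bp with 1 AP-1 match (chr17:71186026-71186552, 527 bp and 515 bp). Pmepa1, which limits SMAD phosphorylation, had 4, the nearest inside the gene at 14228 bp (chr2:173086917-173087462, 499 bp and 545 bp). The related co-repressor genes Ski and Skil thus had nearest members that changed width in opposite directions.

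Of transcription factors of EMT, 11 of 13 had a member within 100 kb, all but Hmga2 and Twist2. The nearest lay 4211 bp from Snai2, the Slug gene (chr16:14701544-14701734). It was narrow at both times, 189 bp and 190 bp, and had a CTCF match but no AP-1 match. Tcf4, an E-box binding factor gene, had one inside the gene at 23716 bp that measured 460 bp and 551 bp and had 1 AP-1 match. Prrx1, a homeobox gene, had one at 24796 bp (chr1:165268637-165269566, 930 bp and 702 bp). The member 32719 bp from Sox4 grew from 971 bp to 1442 bp and had the AP-1 match printed above (chr13:29008851-29010292). For 7 of the 11 genes the nearest member had an AP-1 match, against 51.8% of all members. In other lists, distinct nearest members with a match ran from 2 of 8 (feedback inhibitors) to 8 of 9 (ligands). Lists thus lay on both sides of the 51.8%, and no list was tested.

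Genes of the AP-1 family had a member in 12 of 13 cases, all but Jun. Mafk, a small MAF gene, had one 1767 bp from a start (chr5:140269255-140271460) that shrank from 2206 bp to 740 bp. Junb had one at 5837 bp that measured 1566 bp and 1441 bp (chr8:87508454-87510042), with an AP-1 match 2 bp from the centre. Jdp2, which encodes a repressor that dimerises with JUN, had one at 5942 bp (chr12:86933882-86934424, 423 bp and 542 bp), also with an AP-1 match. Maff had one in a coding exon, 9510 bp from a start (chr15:79188001-79188485, 485 bp and 298 bp). The nearest members of the 12 genes were 11 distinct regions, since Jdp2 and Batf shared one, and 7 of these had an AP-1 match, against 51.8% of all members.

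Epithelial junction genes had a member in 16 of 17 cases, all but Crb3, and 40 distinct members within 100 kb. Jup, the plakoglobin gene, had one inside the gene 2082 bp from a start (chr11:100256449-100256981, 478 bp and 497 bp). Cldn4 had one at 3702 bp that grew from 294 bp to 412 bp (chr5:135418691-135419102). Cdh1 had 5, the nearest inside the gene at 4138 bp, with 455 bp and 453 bp (chr8:109132181-109132660). F11r, which encodes the junctional adhesion molecule A, also had 5, the nearest at 7555 bp (chr1:173375265-173375789, 515 bp and 427 bp, with 2 AP-1 matches). The nearest members of the 16 genes were 15 distinct regions, since Ocln and Marveld2 shared one, and 7 of these were wider at 12 h, against 60.9% of all members.

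Mesenchymal and matrix genes had a member in 13 of 18 cases. Col1a1, Col1a2, Col3a1, Fn1 and Postn had none. Timp3, a metalloproteinase inhibitor gene, had one at 3903 bp that grew from 338 bp to 542 bp (chr10:85758660-85759214). Cdh2, the N-cadherin gene, had 4 members, the nearest inside the gene at 4164 bp, with 416 bp and 399 bp. Lox, which encodes a collagen cross-linking enzyme, had 3, the nearest at 5454 bp with 853 bp and 848 bp. Mmp2, a gelatinase gene, had one at 8738 bp (chr8:95342135-95342489, 354 bp and 235 bp), while the nearest vehicle region lay 459951 bp away. None of these 4 nearest members had an AP-1 match. Target genes of YAP and TEAD had a member in 11 of 11 cases, integrins in 11 of 12, actin genes in 13 of 16 and epithelial regulators in 10 of 13. The genes with the most members within 100 kb were Bre with 10, and Arhgap26, Kalrn and Ppp3ca with 9 each.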

How the data were processed

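Chromatin accessibility was measured by ATAC-seq in NMuMG cells in 3 conditions with 2 biological replicates each, grouped by the sample labels. The authors mapped the reads to mm9 with the ENCODE pipeline, called peaks with MACS2 2.1.2 and kept those reproducible between replicates. The deposited lists hold peak coordinates (other unit: bp), 1 list per condition. The deposited score of the vehicle list has no stated scale, and in both TGFβ lists that column numbers the lines; neither was used. The lists hold no read counts, and library read totals were not used here.

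Distinct intervals of at least 150 bp were merged at gaps under 1000 bp per list, and the lists were then merged likewise. Start sites came from GENCODE vM1 on NCBIM37. Coordinates are 1-based. The members, gene lists and motifs were chosen with earlier results of these data known. The regions named were the extremes of width, width ratio, motif number and isolation, and the member nearest to up to 4 genes of 7 lists. Motifs were exact matches on both strands within 250 bp of a centre, and flanking windows that met no union region gave the background. For CTCF a degenerate consensus was searched. Classes were compared by logistic regression (linear for GC content) with errors grouped by 1 Mb bins, Benjamini-Hochberg adjusted over the motifs with at least 5 regions with and without a match in each class. Intervals are 95%, cover counting error only, and regions are not replicates. The functions were tested on simulated data. Alternatives to merging, width, margin, chain gap, list length and window were computed. Python 3.11.15, numpy 2.4.6, pandas 2.3.3, scipy 1.17.1, statsmodels 0.14.6, pysam 0.24.0 and matplotlib 3.10.9 were used. In the gene lists, Ajuba and Spi1 had no match by symbol.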

Additional observations from a re-analysis of the deposited data

Results flagged for a closer look

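The rule used vehicle intervals of at least 150 bp. Vehicle intervals under that width, 657 in number, lay outside the main measurement and overlapped 37 scattered regions (0.453%), of which 15 had an AP-1 match and 4 a CTCF match. These 37 members thus had a narrow reproducible vehicle peak. Their median widths were 409 bp at 2 h and 471 bp at 12 h. Among clustered regions the share was also 0.453% (7 of 1546).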

How the results depend on the processing

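No paired analysis was possible because each list was made from both replicates and holds no value per replicate, and for the same reason the replicates could not be left out in turn. Of 101 alternative fits, 89 kept their direction and their side of the threshold. Of 9 alternative counts of members, 8 stayed within 1.5 times the main count, and of 9 shares of genes 2 stayed within the interval of the main share. Counts of members stayed between 5846 and 9290, except with the TGFβ lists shortened to the length of the vehicle list (2356). The share of genes with a member within 100 kb moved from 53.4% to 52.2% at a merge distance of 2000 bp or without the sex chromosomes, 42.9% at a margin of 5000 bp, 55.4% and 48.4% at chain gaps of 10 kb and 50 kb, 46.9% with single regions only and 20.8% with shortened lists. The AP-1 odds ratio against shared distal regions turned to 0.997 with width and GC content in the fit. It was 1.04 in regions of 1 interval per list, and 1.08 with width and GC content added there, both past no threshold. The settings of 1 interval per list were chosen after seeing the data, while the fit of all regions with width and GC content was planned. The CTCF odds ratio against shared distal regions turned to 0.668 with width and GC content, 0.642 with these in regions of 1 interval, and 0.693 with shortened lists, while it passed the threshold at 1.22 (chain gap 50 kb), 1.27 (single regions) and 1.43 (window of 100 bp to either side). The odds ratio for lying inside genes against clustered regions was 1.31 and passed the threshold at a margin of 5000 bp, and turned to 0.942 at a chain gap of 10 kb. The GC difference from clustered regions fell to -0.497 points with shortened lists and missed the threshold. The causes were not tested. CTCF and the SMAD palindrome against clustered regions could not be fitted at a chain gap of 10 kb or with shortened lists, where too few clustered regions held a match.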
